A study of Mus musculus with 9 samples.

Results

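The lysosome was followed through 42 of its genes, which encode its hydrolases and their cofactors, its membrane proteins, its proton pump and the transcription factors that act on it. The members were chosen by gene name, and all 42 were found among the 55322 genes of the expression table. RNA sequencing had been done on 9 mouse libraries in 3 groups of 3. B cells with and without surface CD11b were sorted from the bone marrow (BM) of WT C57BL/6 mice 48 h after an intraperitoneal dose of 5 mg/kg lipopolysaccharide (LPS), a bacterial cell wall product that sets off emergency myelopoiesis. They are called CD11b+ and CD11b- B cells. The marrow had first been depleted of cells bearing CD3, CD4, CD8, Gr-1, NK1.1 or TER119. The other group was CD11b+F4/80+ peritoneal macrophages (PMs) of naive WT mice, so a B cell group and PMs differ in cell type, site and LPS at once, and these cannot be told apart. The labels do not say which libraries share a mouse, and p-values then measure only the spread between these samples, which may be technical.

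The libraries held 18014658 to 35251215 reads on genes. Expression is given as FPKM, which is scaled for exon length and for the reads on genes of a library. Levels of different genes are set side by side on this scale, so their order and shares rest on the exon length used. Replicate 3 of each B cell group was less like the other two of its group (Pearson r of 0.954 and 0.959 in CD11b- and of 0.934 and 0.942 in CD11b+ B cells, against 0.981 and 0.978 between replicates 1 and 2). PM replicate 1 stood further apart, with r of 0.901 and 0.896 to the other PM libraries, which had 0.949 between them, and it was the lowest PM library for 21 of 39 members with a mean of at least 1 FPKM there. The summed FPKM of 10 B cell markers was 6680 to 6994 in CD11b- and 5245 to 5925 in CD11b+ B cells, against 61.4 to 118 in PMs. The summed FPKM of 10 monocyte and macrophage markers was 24287 to 61377 in PMs, 36.5 to 54.4 in CD11b- and 108 to 308 in CD11b+ B cells. Both B cell groups were thus rich in B cell markers and PMs in monocyte and macrophage markers. *Itgam*, which encodes CD11b, was 0.3996, 0.251 and 0.869 FPKM in CD11b-, 1.92, 1.31 and 1.51 in CD11b+ B cells and 251 to 358 in PMs, with no overlap between the B cell groups, and its difference between them did not pass the threshold (limma adjusted p = 0.5001). In bulk RNA, fewer cells of a type and less RNA per cell cannot be told apart.

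Lysosomes are acidified by the V-ATPase, a proton pump of a membrane sector (V0) and a catalytic sector (V1), and the low pH activates the cathepsins, glycosidases and lipid hydrolases inside. Membrane glycoproteins such as Lamp1 and Lamp2 line the organelle. In macrophages it digests what has been engulfed, and in B cells its proteases cut antigen and the invariant chain for presentation on MHC class II. The related factors Tfeb, Tfe3 and Mitf bind the E-box letters CACGTG, and TCACGTGA in particular, before many of these genes.

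These letters were looked up in RefSeq promoters of GRCm38.p6, which span 250 bases before to 50 bases after a start, and 34 of the 42 members had one. Both motifs are palindromes, so both strands were covered at once, and every match of the longer motif is also one of the shorter. The shorter, CACGTG, was present for 12 of the 34 members (35.3%), in 28.6% of their 42 promoters, and in 7.15% of all 32817 promoters. The longer, TCACGTGA, was present for 6 members (17.6%), in 14.3% of their promoters and in 0.975% of all promoters. Those 6 were *Atp6v0d1*, *Atp6v1a*, *Ctsa*, *Ctsd*, *Gla* and *Mcoln1*. Of the 12 members with CACGTG, 10 were called lower than in PMs in each B cell group, *Gla* was not called and *Mcoln1* alone was called higher, a call lost in 7 of 16 alternatives in CD11b- and in 13 of 16 in CD11b+ B cells. Of the 22 members with a promoter and no match, 12 were called lower in each group. Of all genes tested, 11.0% were called lower in CD11b- and 8.78% in CD11b+ B cells. These calls come from the limma comparisons with PMs given below. There, calls of *Ctsf* and *Atp6v1a*, and of *Tpp1* among those with no match, were lost in some alternatives. A difference between members with and without a match was not tested. The sites of 3 of the 10 lower members (*Ctsd*, *Atp6v1a* and *Lamp1*) and of *Mcoln1* are shown as examples of the letters and their place. The matched letters are in capitals, and each run reads along the strand of its gene.
Ctsd, chr7:142387901-142387930, minus strand: cgtcTCACGTGAcccgttgagggccaaaca
Atp6v1a, chr16:44139366-44139395, minus strand: taaaTCACGTGAtaggcttaacgtcttcca
Lamp1, chr8:13159096-13159125, plus strand: atatCACGTGgtccagcgccCACGTGatgc
Mcoln1, chr8:3500469-3500498, plus strand: ccgcTCACGTGAccgcggcgcatgtcagct
The first capital lies at -99 from the start of *Ctsd*, -132 of *Atp6v1a*, -61 of *Lamp1* and -46 of *Mcoln1*. A match is a description of the letters and not of a bound site.

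Lysosomal transcripts were found in all 3 groups and were most abundant in PMs. The 42 members summed to 5517, 6817 and 7285 FPKM in the PM libraries, to 2337, 2266 and 2184 in CD11b- and to 2357, 2321 and 1913 in CD11b+ B cells. The mean sum was 6539.5 ± 916 in PMs, 2262 ± 76.6 in CD11b- and 2197 ± 247 in CD11b+ B cells (SD, n = 3 each), so that PMs held 2.89 times the sum of CD11b- and 2.98 times that of CD11b+ B cells. All PM libraries lay above all B cell libraries, and the B cell groups overlapped. In reads, the members took 1.74% to 2.19% of each PM library, 0.662% to 0.686% of each CD11b- and 0.527% to 0.676% of each CD11b+ library. At a mean of at least 1 FPKM stood 39 members in PMs, 36 in CD11b- and 37 in CD11b+ B cells, and at a mean of at least 100 FPKM stood 14, 5 and 6.

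**Figure D1:**
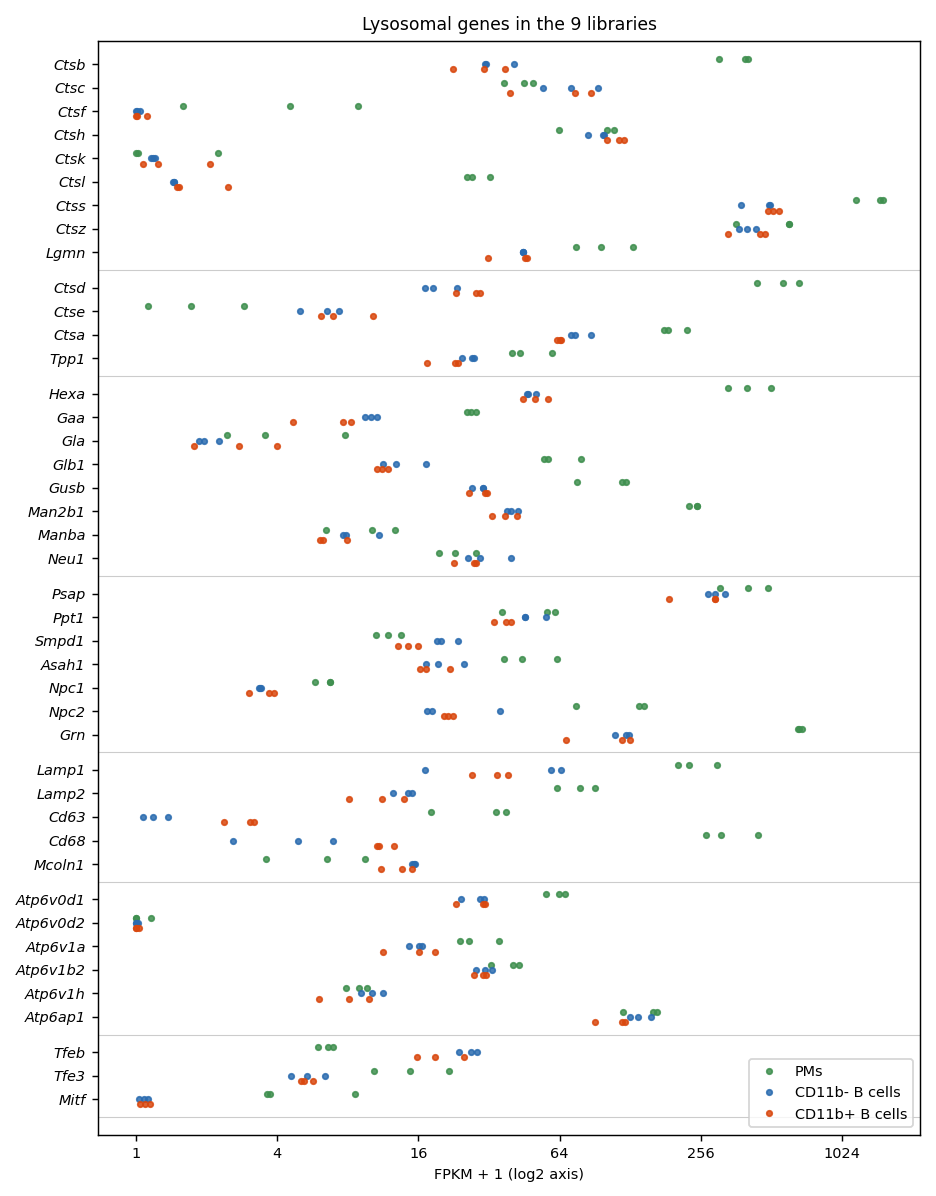
FPKM + 1 of each lysosomal gene (rows, grouped by role) in every library on a log2 axis, with 3 points per group. *Ctss* lies furthest right in every group, the points of the B cell groups mostly overlap, and *Cd68*, *Ctsd*, *Cd63* and *Ctsl* show wide gaps between B cells and PMs.

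*Ctss*, the cathepsin that trims the invariant chain in antigen presenting cells, was the member with the highest mean in every group. It reached 1168, 1526 and 1487 FPKM in PMs, 502, 499 and 379 in CD11b- and 518, 493 and 548 in CD11b+ B cells, or 21.3%, 20.3% and 23.7% of the mean member sum. Behind it the order differed. In all 6 B cell libraries the next members were *Ctsz*, a carboxypeptidase, and *Psap*, the precursor of the saposins that help lipid hydrolases, and these 3 genes made up 49.2% to 55.7% of the sum. In PMs the progranulin gene *Grn* was second in every library, followed by *Ctsd* or *Ctsz*.

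The make-up by role moved as well. Cysteine cathepsins and legumain took 37.3% to 40.7% of the sum in PMs, 44.5% to 51.4% in CD11b- and 52.5% to 56.1% in CD11b+ B cells. Membrane proteins took 10.1% to 11.3% in PMs, and 2.12% to 4.30% in CD11b- and 2.69% to 3.26% in CD11b+ B cells. Proton pump members took 4.08% to 4.88% in PMs, 8.87% to 10.9% in CD11b- and 8.40% to 8.60% in CD11b+ B cells. These shares sum to a whole, so that one can rise because another falls.

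**Figure D2:**
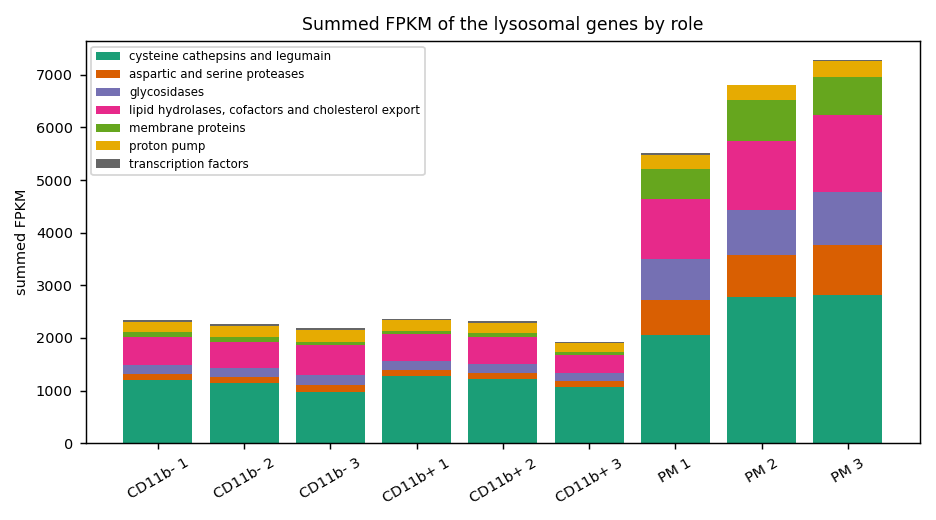
Summed FPKM of the lysosomal genes in each library, stacked by role (bars from 0, 1 bar per library). The PM bars reach 5517 to 7285 and the B cell bars 1913 to 2357. Membrane proteins (green) are 581 to 773 FPKM in PMs and 46.4 to 97.4 in B cells.

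To ask how far each B cell group stood from macrophages, log2(FPKM + 1) was compared with limma (two-sided, Benjamini-Hochberg over all genes tested, threshold of 0.05). Fold changes on this scale understate the change of low genes, and ratios of mean FPKM are given as folds beside them. In CD11b+ B cells, 25 of 41 tested members were lower than in PMs and 3 were higher. Of all 22102 genes tested, 8.78% were lower and 21.5% were higher. In CD11b- B cells, 25 of 41 were lower and 5 were higher, against 11.0% and 25.8% of 20985 genes. The median log2 fold change was -1.27 over the members and 0.25 over all genes in CD11b+ B cells, and -1.16 and 0.24 in CD11b- B cells. Both comparisons use the same PM libraries, so they are set side by side and are not independent. Median-ratio scaling and quantile normalization moved the median gene by -0.27 and -0.31 in CD11b+ and by -0.29 and -0.26 in CD11b- B cells. It moved by -0.46 and -0.45, and by -0.49 and -0.50, with edgeR and DESeq2, which change the test and its input as well as the scaling. Over these 4 settings the share of calls that were higher went from 71.0% to between 50.1% and 51.1% over all genes in CD11b+ B cells (10.7% to between 3.23% and 6.90% over the members), and from 70.1% to between 48.0% and 52.4% in CD11b- B cells (16.7% to between 3.33% and 7.14%). The members called lower numbered 27 to 31 in CD11b+ and 26 to 30 in CD11b- B cells, and the members called lower under another setting alone are named with their role below.

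**Figure D3:**
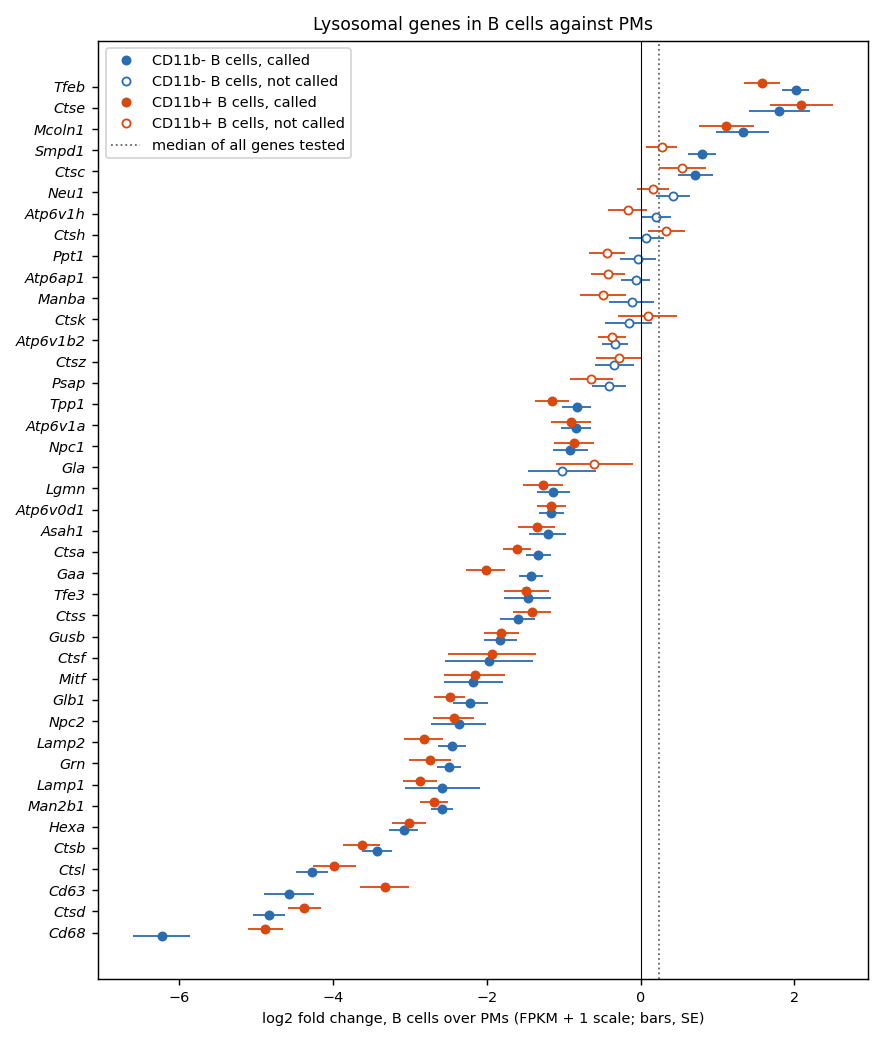
Log2 fold change (FPKM + 1 scale, bars SE) of each tested member in CD11b- (blue) and CD11b+ B cells (orange) over PMs, n = 3 each. Filled points passed the limma threshold, and the dotted line is the median of all genes tested with CD11b- B cells (0.24). Most members lie left of the line, down to -6.23 for *Cd68*. Of those to its right, *Tfeb*, *Ctse* and *Mcoln1* lie furthest.

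Among the cysteine cathepsins and legumain, 5 of 9 were lower than in PMs in each B cell group. *Ctsl*, a broad endopeptidase, was 24.7, 31.3 and 26.0 FPKM in PMs, 0.462, 0.446 and 0.462 in CD11b- and 0.525, 0.495 and 1.48 in CD11b+ B cells. It was 59.9 times as high in PMs as in CD11b- B cells (log2 fold change -4.27 ± 0.207 SE, limma adjusted p = 5.25e-06) and 32.8 times as high as in CD11b+ B cells (-3.98 ± 0.278, adjusted p = 3.00e-05), or 53.6 times without CD11b+ replicate 3. *Ctsb*, both an endopeptidase and an exopeptidase, was 304 to 406 FPKM in PMs, 29.6 to 39.8 in CD11b- and 21.6 to 36.5 in CD11b+ B cells. No library of either B cell group reached the lowest PM library for these genes.

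*Ctss* fell less, to 33.0% of the PM mean in CD11b- (limma adjusted p = 0.00129) and to 37.3% in CD11b+ B cells (adjusted p = 0.00408). *Lgmn*, the asparaginyl endopeptidase that activates cathepsins, fell to 43.8% and 40.4%. *Ctsf* was 0.595, 3.54 and 7.84 FPKM in PMs, a wide spread, and at most 0.121 in any B cell library, on 9 reads in CD11b- and 19 in CD11b+ B cells. Its calls were lost without the filter on FPKM, without any 1 B cell library, without PM replicate 2 or without PM replicate 3 (adjusted p up to 0.116 and 0.0985 in CD11b+ and CD11b- B cells).

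The other cysteine cathepsins were not called lower than in PMs. *Ctsh*, an aminopeptidase, was 62.5, 101 and 108 FPKM in PMs, 97.2, 97.7 and 83.2 in CD11b- and 119, 114 and 100.5 in CD11b+ B cells, with log2 fold changes of 0.07 (95% interval -0.46 to 0.61) and 0.33 (-0.22 to 0.89) that turned negative under at least 1 other scaling. *Ctsz* gave -0.34 (-0.93 to 0.24) and -0.28 (-0.96 to 0.40), and was called lower with DESeq2 in both groups and in CD11b- B cells also with edgeR or without PM replicate 1 (adjusted p down to 0.00938 in CD11b- and 0.0465 in CD11b+ B cells). It overlaps exons of *Nelfcd* (up to 67.8 FPKM). *Ctsc*, which activates granule serine proteases, was 36.0 to 48.4 FPKM in PMs, 53.3 to 92.0 in CD11b- and 38.3 to 86.4 in CD11b+ B cells. *Ctsc* was called in CD11b- B cells (1.68 times the PM mean, adjusted p = 0.0445), a call lost in 13 of 16 alternatives, and not called in CD11b+ B cells (adjusted p = 0.222). *Ctsk*, the collagenase of osteoclasts, did not exceed 1.25 FPKM in any library.

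The aspartic and serine proteases differed in direction. *Ctsd*, the main aspartic protease of lysosomes, was 441, 573 and 669 FPKM in PMs, 17.4, 16.004 and 22.3 in CD11b- and 28.4, 27.2 and 22.1 in CD11b+ B cells. PMs held 30.2 times the level of CD11b- (log2 fold change -4.84 ± 0.211, limma adjusted p = 3.06e-06) and 21.7 times that of CD11b+ B cells (-4.37 ± 0.218, adjusted p = 4.99e-06), the second largest change of the members on this scale in each comparison. *Ctse*, an endosomal aspartic protease, went the other way, with 0.123, 0.724 and 1.89 FPKM in PMs, 5.54, 3.996 and 6.33 in CD11b- and 5.91, 5.15 and 9.25 in CD11b+ B cells. It was 5.79 times the PM mean in CD11b- (adjusted p = 0.00970) and 7.42 times in CD11b+ B cells (adjusted p = 0.00684), or 12.5 and 15.998 times without PM replicate 3, and edgeR did not call it in either (adjusted p = 0.103 and 0.0579). *Ctsa*, a carboxypeptidase that also protects *Neu1* and *Glb1* products, and *Tpp1*, a tripeptidyl peptidase, were lower in both groups, at 39.4% and 54.6% of PMs in CD11b- and 32.3% and 43.6% in CD11b+ B cells. The *Tpp1* call in CD11b- B cells was lost without CD11b- replicate 2 (adjusted p = 0.0561). *Ctsa* overlaps exons of *Pltp*, which reached 390 FPKM, and use of strand in counting is not stated, so reads of the pair may be mixed.

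Of 8 glycosidases, *Hexa*, *Gaa*, *Glb1*, *Gusb* and *Man2b1* were lower in both B cell groups and *Gla*, *Manba* and *Neu1* passed the threshold in neither. *Hexa*, the alpha subunit of the enzyme that degrades GM2 ganglioside, was 332, 401 and 506 FPKM in PMs, 49.8, 45.6 and 45.9 in CD11b- and 56.3, 49.3 and 43.7 in CD11b+ B cells. PMs thus held 8.76 and 8.29 times the B cell means (limma adjusted p = 1.82e-05 and 3.73e-05). *Man2b1*, an alpha-mannosidase, fell to 16.4% and 15.3% of PMs, *Glb1*, a beta-galactosidase, to 20.3% and 16.4%, *Gusb*, beta-glucuronidase, to 26.9% and 27.3%, and *Gaa*, which degrades glycogen, to 34.9% and 22.6%. The sialidase *Neu1* was 18.6 to 27.1 FPKM in PMs and 21.6 to 38.8 in B cells, with intervals of -0.09 to 0.94 and -0.32 to 0.64 on the log2 scale. *Manba*, a beta-mannosidase, was called lower in CD11b+ B cells with median-ratio scaling, quantile normalization, edgeR or DESeq2 (log2 fold change down to -1.08, adjusted p down to 0.00401). *Gla*, alpha-galactosidase A, was called lower in CD11b- B cells with edgeR, with DESeq2 or without PM replicate 2 (down to -2.34, adjusted p down to 9.31e-04). *Glb1* overlaps exons of *Tmppe* (up to 31.7 FPKM).

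Lipid handling split in the same way. *Grn* was 669.8, 660.6 and 685 FPKM in PMs, 126, 122 and 109 in CD11b- and 117, 127 and 67.2 in CD11b+ B cells (limma adjusted p = 2.00e-05 and 1.99e-04 against PMs). *Npc2*, which hands cholesterol to *Npc1* for export, was 74.2 to 145 FPKM in PMs, 16.4 to 34.5 in CD11b- and 19.5 to 21.4 in CD11b+ B cells. *Asah1*, acid ceramidase, was at 41.7% and 37.3% of the PM mean. *Npc1* was 2.26 and 2.13 times as high in PMs, and its calls were lost without CD11b- replicate 1 or 2 in the first comparison (adjusted p up to 0.0562) and without PM replicate 2 or 3 or any 1 CD11b+ library in the second (up to 0.0969). *Npc1*, at 2.03 to 5.73 FPKM, overlaps exons of *Rmc1* (up to 21.9 FPKM), so reads of this pair may be mixed too. *Psap* and the palmitoyl thioesterase *Ppt1* were not called with the FPKM as deposited. With median-ratio scaling, edgeR or DESeq2, *Psap* was called lower in both groups (adjusted p down to 0.00155 in CD11b- and 0.00241 in CD11b+ B cells) and *Ppt1* in CD11b+ B cells (down to 0.00901), and so were *Psap* in CD11b- and *Ppt1* in CD11b+ B cells without PM replicate 1. *Smpd1*, acid sphingomyelinase, was 10.9, 12.5 and 9.59 FPKM in PMs, 19.0, 18.2 and 22.6 in CD11b- and 12.2, 13.4 and 14.9 in CD11b+ B cells. It passed the threshold in CD11b- (1.81 times PMs, adjusted p = 0.0113) and not in CD11b+ B cells (adjusted p = 0.341), and with median-ratio scaling, quantile normalization, edgeR or DESeq2 it passed in neither.

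Membrane proteins showed the widest gap. *Cd68*, a heavily glycosylated protein of macrophage endosomes, was 268, 445 and 311 FPKM in PMs, 1.597, 5.93 and 3.92 in CD11b- and 9.70, 11.6 and 9.86 in CD11b+ B cells. Against PMs its log2 fold change was -6.23 ± 0.368 in CD11b- (limma adjusted p = 1.43e-05) and -4.88 ± 0.225 in CD11b+ B cells (adjusted p = 3.55e-06), the largest of the members on this scale in each comparison. By the ratio of mean FPKM, *Ctsf* and *Cd63* stood further from PMs in CD11b-, and *Ctsf* and *Mitf* in CD11b+ B cells. The order in CD11b+ B cells depended on single libraries. There the *Mitf* ratio went from 45.7 to 28.5 times without PM replicate 1, and that of *Ctsl* from 32.8 to 53.6 times without CD11b+ replicate 3. *Cd63*, a tetraspanin of late endosomes and of primary granules, was 17.1, 33.4 and 36.8 FPKM in PMs, 0.179, 0.0700 and 0.373 in CD11b- and 2.05, 2.19 and 1.37 in CD11b+ B cells. It stood at 0.713% and 6.44% of the PM mean, the first 0.428% without CD11b- replicate 3.

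*Lamp1* was 203, 227 and 299 FPKM in PMs, 57.8, 64.0 and 16.1 in CD11b- and 26.0, 37.6 and 33.4 in CD11b+ B cells. CD11b- replicate 3 was the lowest of all 9 for *Lamp1* while the other two of its group were the highest of the B cell libraries. *Lamp2*, which also takes part in chaperone-mediated autophagy, was at 17.0% and 13.2% of the PM mean. The cation channel *Mcoln1*, which lets calcium out of lysosomes, was higher in B cells, at 2.59, 5.51 and 8.50 FPKM in PMs, 14.3, 14.0 and 14.4 in CD11b- and 12.6, 14.0 and 10.1 in CD11b+ B cells. Its adjusted p was 0.0192 in CD11b- and 0.0497 in CD11b+ B cells. The call was lost in 7 of 16 alternatives in the first and in 13 of 16 in the second, including without any 1 library of the B cell group (adjusted p up to 0.0720 and 0.166).

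Of the proton pump, *Atp6v0d1* (the common V0 d subunit) and *Atp6v1a* (the catalytic V1 subunit) were lower in both B cell groups. *Atp6v0d1* was 66.3, 55.1 and 62.8 FPKM in PMs, 23.2, 29.3 and 28.3 in CD11b- and 22.1, 29.8 and 29.3 in CD11b+ B cells (limma adjusted p = 0.00132 and 0.00289). *Atp6v1a* was at 53.4% and 52.1% of PMs, a call lost without CD11b- replicate 2 in the first comparison (adjusted p = 0.0546) and without the filter, CD11b+ replicate 2 or 3 or PM replicate 1 or 2 in the second (up to 0.0828). The V1 subunits *Atp6v1b2* and *Atp6v1h* and the accessory subunit *Atp6ap1* did not pass, with 118, 159 and 164 FPKM of *Atp6ap1* in PMs, 127, 137 and 156 in CD11b- and 121, 117 and 89.5 in CD11b+ B cells. *Atp6v1b2* was called lower in both groups with median-ratio scaling, quantile normalization, edgeR or DESeq2 (log2 fold change down to -0.88 in CD11b- and -0.93 in CD11b+ B cells). *Atp6ap1* was called lower in CD11b+ B cells with median-ratio scaling, edgeR or DESeq2 (adjusted p down to 0.00599) and in CD11b- B cells with DESeq2 (0.0483). *Atp6v0d2*, the d subunit of osteoclasts and some macrophages, had 13 reads over the 3 PM libraries and 2 in each B cell group and was not tested.

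The transcription factors of the family went in different directions. *Tfeb* was 5.00, 5.91 and 5.61 FPKM in PMs, 22.9, 25.7 and 27.5 in CD11b- and 17.8, 24.0 and 14.8 in CD11b+ B cells. It was 4.61 times the PM mean in CD11b- (log2 fold change 2.02 ± 0.173, limma adjusted p = 1.09e-04) and 3.42 times in CD11b+ B cells (1.58 ± 0.234, adjusted p = 0.00168), the 1 member called higher under all 16 alternatives in each comparison. *Tfe3* was lower, at 20.7, 9.37 and 13.8 FPKM in PMs, 3.58, 4.35 and 5.38 in CD11b- and 4.07, 4.67 and 4.23 in CD11b+ B cells. *Mitf*, the factor of melanocytes and osteoclasts, was 7.57, 2.75 and 2.64 FPKM in PMs and at most 0.148 in any B cell library. In B cells *Tfeb* was thus the most abundant of the 3 by FPKM, whereas in PMs *Tfe3* was, in every library.

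The comparison within the marrow asked whether CD11b+ B cells differed from CD11b- B cells in these genes. Of 40 tested members, limma called none higher and none lower, where 0.0689% of 21778 genes (15) were called higher and 0% lower. Those 15 became 3 to 7 without any 1 library except CD11b+ replicate 3, without which they were 40, and 2 without the filter. edgeR also called none, and DESeq2 called *Cd63*. At an unadjusted p under 0.05, 3 members were higher (*Ctsd*, *Cd63* and *Cd68*) and 3 lower (*Gaa*, *Ppt1* and *Smpd1*), against 4.65% and 3.04% of all genes. These counts were 2 and 6 without CD11b+ replicate 1 and 5 and 2 without CD11b+ replicate 3, and over all 6 libraries left out in turn they were 2 to 5 and 2 to 6. The groups did not overlap for 4 members that were higher (*Ctsh*, *Ctsl*, *Cd63* and *Cd68*) and 6 that were lower (*Ctsa*, *Tpp1*, *Gaa*, *Ppt1*, *Smpd1* and *Atp6ap1*), against 8.63% and 6.32% of all genes. The median log2 fold change was -0.12 over the members and 0.03 over all genes. Of the 36 members with a mean of at least 1 FPKM in CD11b- B cells, 32 had a 95% interval within 1 log2 unit of 0, and *Gaa*, *Gla*, *Lamp1* and *Cd68* had one that reached further. *Cd63*, with a mean of 0.207 FPKM in CD11b- B cells, was not in this count, and its interval, given below, reached further too.

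**Figure D4:**
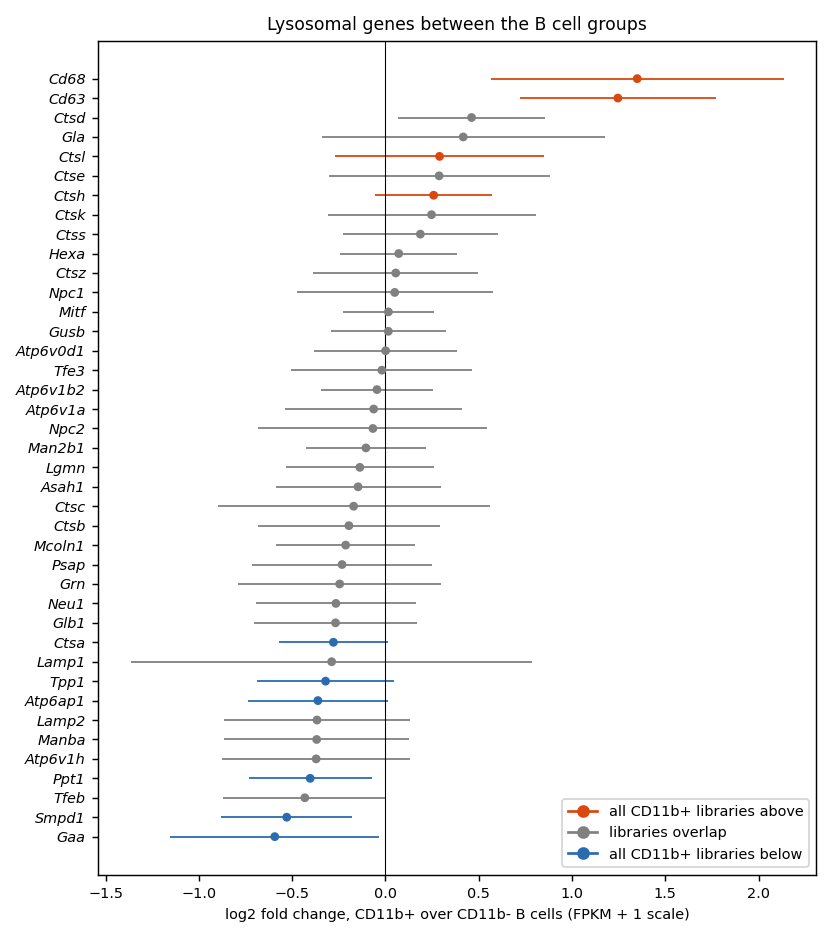
Log2 fold change (FPKM + 1 scale) with 95% interval of the 40 tested members in CD11b+ over CD11b- B cells, n = 3 each, with colour for groups that do not overlap. *Cd68* (1.35) and *Cd63* (1.25) lie apart at the top, *Gaa* (-0.59) and *Smpd1* (-0.53) at the bottom, and none passed the adjusted threshold.

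The 2 members with the largest differences were the tetraspanin *Cd63* and *Cd68*, whose values are given above. All CD11b+ libraries lay above all CD11b- libraries for both. *Cd63* rested on 75 reads in CD11b- and 611 in CD11b+ B cells, and its mean FPKM was 0.207 ± 0.153 and 1.87 ± 0.438 (SD, n = 3), a 9.03-fold difference, or 15.03-fold without CD11b- replicate 3 (log2 fold change 1.25, 95% interval 0.72 to 1.77, limma adjusted p = 0.168). The adjusted p of *Cd63* ranged from 1.79e-05 with DESeq2 to 0.705 over 18 alternatives. *Cd68* was 3.82 ± 2.17 and 10.4 ± 1.06 FPKM, a 2.72-fold difference (1.35, 0.56 to 2.13, adjusted p = 0.370, range 0.0650 to 0.705). *Ctsd* was 18.6 ± 3.30 and 25.9 ± 3.34 FPKM, a 1.39-fold difference (0.46, 0.07 to 0.86, adjusted p = 0.614), and its groups overlapped. Without replicate 3 of each group, a setting chosen after seeing the data, the log2 fold changes were 1.47, 1.45 and 0.70 for *Cd63*, *Cd68* and *Ctsd*, with adjusted p of 0.104, 0.385 and 0.118.

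Markers of monocytes and macrophages and of neutrophils moved in the same direction. The 4 markers of resident peritoneal macrophages did not as a sum, with a mean of 81.9 FPKM in CD11b- and 66.9 in CD11b+ B cells. Of these 4, 1 was higher without overlap. Of the 10 monocyte and macrophage markers, 9 were higher in all CD11b+ than in all CD11b- libraries, against 8.63% of all genes, and limma called none. Among the 9 was *Csf1r*, with 0.223, 0.174 and 0.130 FPKM in CD11b- and 3.56, 3.19 and 1.36 in CD11b+ B cells. Of the 10 neutrophil markers, 9 were also higher without overlap and 3 were called (*S100a8*, *S100a9* and *Retnlg*), against 0.0689% of all genes called higher. With the number in the descriptions as a block, a fit in which replicate 2 of each group has no partner and limma called no gene, these calls were lost. The neutrophil markers summed to 1.74 to 3.01 FPKM in CD11b-, 217 to 1576 in CD11b+ B cells and 5.17 to 24.0 in PMs. No marker of the monocyte and macrophage or the neutrophil list was at 0 in all CD11b+ libraries. The difference between the B cell groups was 20.3% of the PM mean for *Ctsh*, 5.72% for *Cd63*, 1.93% for *Cd68* and 1.38% for *Ctsl*, the 4 members that were higher without overlap, and 1.30% for *Ctsd*. The *Ctsl* value was 0.195% without CD11b+ replicate 3. For the monocyte and macrophage markers the difference was 0.313% to 4.29% of the PM mean with a median of 0.587%. The upper end was *Fcgr1*, with 0.342, 0.280 and 1.47 FPKM in CD11b+ B cells, so it rested largely on CD11b+ replicate 3. The next was *Csf1r* at 1.33%. Plasma cell markers (4 genes) summed to 6.86 to 31.0 FPKM in CD11b- and 87.4 to 464 in CD11b+ B cells. Erythroid markers (4 genes) summed to 1.199 to 21.2 and 27.6 to 38.9. Only *Jchain* of the plasma cell and *Hbb-bs* of the erythroid markers were higher without overlap, and limma called no gene of these lists. *Jchain* had a mean of 211 FPKM in CD11b+ B cells, where the plasma cell markers had a mean sum of 220. The part of RNA from other cells in the values of *Cd63*, *Cd68* and *Ctsd* was not tested.

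On the lower side, *Smpd1* had the smallest unadjusted p, 0.00834. Its mean was 19.9 ± 2.37 FPKM in CD11b- and 13.5 ± 1.37 in CD11b+ B cells (log2 fold change -0.53, 95% interval -0.88 to -0.18, limma adjusted p = 0.460). *Ppt1* was 44.7, 44.5 and 55.2 FPKM in CD11b- and 38.8, 36.9 and 32.5 in CD11b+ B cells (-0.40, -0.73 to -0.07, adjusted p = 0.587). *Gaa* was 8.46, 9.04 and 9.67 FPKM in CD11b- and 6.62, 7.29 and 3.67 in CD11b+ B cells (-0.59, -1.15 to -0.03, adjusted p = 0.643). For all 3 the CD11b+ libraries lay below the CD11b- libraries. Of the 10 B cell markers, 5 were also lower in all CD11b+ libraries, against 6.32% of all genes, and limma called none. Their log2 fold changes ran from -0.47 for *Ebf1*, -0.43 for *Ms4a1* and -0.42 for *Cd79b* to -0.08 for *Cd22*, -0.06 for *Cr2* and 0.14 for *Pax5*. The part of a lower share of B cell RNA in these 3 members was not tested. *Ppt1* overlaps exons of *Cap1* (up to 35.5 FPKM), and *Smpd1* and *Gaa* overlap no exon of another gene.

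**Figure D5:**
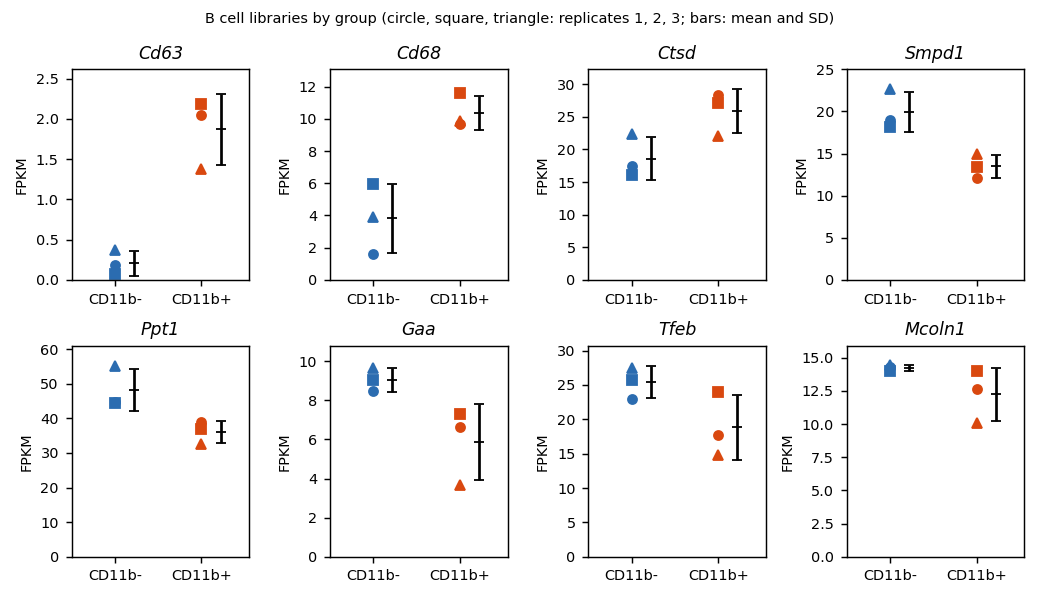
FPKM of 8 members in each B cell library (axes from 0, mean and SD beside the points, n = 3). *Cd63* and *Cd68* are higher and *Smpd1*, *Ppt1* and *Gaa* lower in all CD11b+ libraries, while the groups overlap for *Ctsd*, *Tfeb* and *Mcoln1*, and no member shown passed the limma threshold.

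*Tfeb* was 25.4 ± 2.31 FPKM in CD11b- and 18.9 ± 4.70 in CD11b+ B cells, with a log2 fold change of -0.43 (95% interval -0.87 to 0.00, limma adjusted p = 0.654) and overlapping groups. *Lamp1* had the widest interval, -1.36 to 0.79, and CD11b- replicate 3 was far below replicates 1 and 2. *Hexa* (-0.24 to 0.39), *Gusb* (-0.29 to 0.32), *Atp6v1b2* (-0.34 to 0.25) and *Man2b1* (-0.42 to 0.21) had some of the narrowest among the expressed members. So did *Ctsa* (-0.57 to 0.01) and *Ctsh* (-0.05 to 0.57), whose groups did not overlap. CD11b+ replicate 3 was the lowest of its group for 25 of 37 members with a mean of at least 1 FPKM. Without that library, the median log2 fold change of the members was -0.01, against -0.12 with it.

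The other genes of the pathway were 82 lysosomal genes outside the 42, in lists of V-ATPase subunits, hydrolases, membrane proteins and transporters, enzyme delivery, regulators and cystatins. Between the B cell groups limma called none of 81 tested, edgeR none, and DESeq2 called 2. At an unadjusted p under 0.05, 2 were higher and 3 lower, against the 4.65% and 3.04% of all genes given above. Against PMs, 27 of 82 were lower and 9 higher in CD11b+ B cells, and 30 were lower and 12 higher in CD11b- B cells, where 8.78% and 21.5%, and 11.0% and 25.8%, of all genes were called. With other scalings or tools 39 to 48 were lower and 2 to 6 higher in CD11b+ B cells, and 40 to 49 were lower and 5 to 7 higher in CD11b- B cells. On the log2(FPKM + 1) scale, which holds down the change of low genes, the largest falls among those called were of *Slc11a1*, a metal transporter of phagosomes, of *Hgsnat*, which acetylates heparan sulfate, and of the cystatin *Cst3*.

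*Slc11a1* was 140, 133 and 158 FPKM in PMs, 0.146, 0.0696 and 0.143 in CD11b- and 1.49, 1.81 and 0.268 in CD11b+ B cells. *Hgsnat* was 176 to 248 FPKM in PMs and 3.92 to 8.95 in B cells. *Cst3*, a secreted inhibitor of cysteine cathepsins, was 1980.5 to 3333 FPKM in PMs and 77.9 to 157 in B cells. The largest rises on this scale were of *Acp5*, a tartrate-resistant phosphatase, with 2.75 to 6.27 FPKM in PMs and 95.1 to 112 in B cells, of *Ctso*, with 11.1 to 11.7 and 34.5 to 48.5, and of *Rraga*, a GTPase of nutrient sensing at the lysosome, with 12.7 to 26.7 and 51.9 to 68.8. For these 6 genes no B cell library lay within the PM range.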

How the data were processed

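RNA of 9 libraries was analysed, with groups and replicate numbers taken from the sample labels. The authors made cDNA libraries with SMART-seq HT, trimmed read pairs, mapped them with STAR 2.7.2b to GRCm38 and counted them on genes with featureCounts 1.6.1. The submitters' processing notes also name GRCm39. The authors deposited FPKM for 55322 genes, counts divided by exon length and by reads on genes. A second deposited table gives, as a normalized signal, size-factor scaled counts of 11063 genes, and it served as a check of the reads and of depth. Use of strand in counting: not given in the sources used here.

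Computed here: two-sided limma 3.58.1 (lmFit, then eBayes with a mean-variance trend) of log2(FPKM + 1), keeping any gene whose mean reached 0.05 FPKM over the 6 libraries of a comparison, with Benjamini-Hochberg adjustment over all genes tested. An exact two-sided permutation test of 3 against 3 cannot give less than 0.1. FPKM gave whole reads for 100% of values within 0.05 of a read, and edgeR 4.0.16 and DESeq2 1.42.0 were run on these reads as alternatives. In CD11b+ against CD11b- B cells limma called 15 genes higher and 0 lower, edgeR 42 and 0, and DESeq2 328 and 64. The scripts were tested on simulated data. Counting intervals and floors cover counting error only, since the reads carry no molecular identifiers.

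The 42 members and all lists were chosen with earlier results of these data known. All members are named, and of the other lysosomal genes the 3 with the largest change among those called in each direction against PMs. All marker lists were summed, and besides those in the text the ranges in CD11b- and CD11b+ B cells were 68.2 to 105 and 56.5 to 72.3 FPKM for resident peritoneal macrophages, 0.00881 to 0.0254 and 0.373 to 5.75 for osteoclasts, 0.734 to 1.44 and 1.52 to 2.63 for dendritic cells, 0.0614 to 2.66 and 0.936 to 2.88 for T and NK cells, and 0.0162 to 0.0927 and 0.0896 to 0.214 for stromal cells. Members overlapping exons of a gene that reached at least 1 FPKM numbered 8 of 42.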

Additional observations from a re-analysis of the deposited data

How the results depend on the processing

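Of the 25 members called lower against PMs, 22 stayed so in all 16 alternatives in CD11b+ and 21 in CD11b- B cells, and *Tfeb* was the 1 member called higher in all of them. No member's call reversed. Counts of members called higher in CD11b+ B cells against PMs went from 3 to 1 with edgeR, and in CD11b- B cells from 5 to 2 with median-ratio scaling, quantile normalization or DESeq2 and to 1 with edgeR, settings that move the median gene. Those called lower went from 25 to 30, 27, 30 and 31 with median-ratio scaling, quantile normalization, edgeR and DESeq2 in CD11b+, and to 27, 26, 29 and 30 in CD11b- B cells. Members called under some alternative alone numbered 7 in CD11b+ (*Ctsc* higher, *Ctsz*, *Manba*, *Psap*, *Ppt1*, *Atp6v1b2* and *Atp6ap1* lower) and 5 in CD11b- B cells (*Ctsz*, *Gla*, *Psap*, *Atp6v1b2* and *Atp6ap1*, all lower). Leaving out each library in turn gave 2 to 3 higher and 22 to 25 lower in CD11b+ B cells, and 3 to 4 higher and 21 to 27 lower in CD11b- B cells, the 3 without CD11b- replicate 1 or 2. In CD11b+ against CD11b- B cells only DESeq2 called any, 1 member (*Cd63*) and 2 other lysosomal genes.

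Other lysosomal genes called higher in CD11b+ B cells against PMs went from 9 to 5 without the filter, 2 with median-ratio scaling and 3 with quantile normalization, and those called lower from 27 to 47 with median-ratio scaling, 45 with edgeR and 48 with DESeq2. In CD11b- B cells the higher went from 12 to 5, 6, 6 and 7 with median-ratio scaling, quantile normalization, edgeR and DESeq2, and the lower from 30 to 47 with median-ratio scaling and 49 with DESeq2. Leaving out a library gave 4 to 6 higher in CD11b+ (4 without PM replicate 2, 5 without CD11b+ replicate 1 or 2) and 6 to 13 in CD11b- B cells (6 without CD11b- replicate 1, 7 without replicate 2 or 3). Leaving out a library leaves fewer samples, and the cause of the other changes was not tested.

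With the replicate number of the titles as a block, the counts were 0 and 0, 2 and 24, and 4 and 24 higher and lower members for CD11b+ against CD11b-, CD11b+ against PM and CD11b- against PM. Under it *Npc1* was not called in either comparison with PMs (adjusted p = 0.0933 and 0.0572), nor *Mcoln1* in the first (0.0549) or *Ctsc* in the second (0.0523). The labels do not say that a number marks a shared mouse. CD11b- and CD11b+ libraries with the same title number correlated at 0.284, -0.0193 and 0.206 in their deviations from the group means. The pair at -0.0193 has different numbers in the descriptions, and the other 2 pairs share theirs, so a pairing of those 2 was neither shown nor excluded. A block by the number in the descriptions also called 0 (2 higher and 1 lower at an unadjusted p under 0.05). Removal of replicate 3 of both B cell groups, chosen after seeing the data, called 0 members. The design has 3 libraries a group, and *Atp6v0d2* (13, 2 and 2 reads) and *Ctsf* in B cells are limited by depth.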
